A study of Rattus norvegicus with 24 samples.

Results

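The genes described here encode membrane transporters of the solute carrier (SLC) families in the medial gastrocnemius, a calf muscle made mostly of fast-twitch fibers. Members were the genes whose symbol starts with Slc and a number. The mitochondrial Slc25a carriers were left out, as were Slc27a1, Slc39a14, Slc30a1, Slc40a1, Slc11a2 and Slc2a4. This rule took 137 of the 10851 genes in the count table. It started from 176 Slc genes and dropped 33 Slc25a genes and 6 others. Of the 137, 2 carry an Slc symbol without being carriers themselves (Slc4a1ap and Slc7a6os) and stayed in the counts over all members.

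RNA-seq was done on muscle from 24 male Wistar rats, 6 in each of 4 groups. Sed rats received saline and stayed sedentary, and Ex rats received saline and trained on a treadmill. CC-Sed rats received monocrotaline, a plant toxin that injures lung vessels, overloads the right ventricle and leads to heart failure with cardiac cachexia (CC), and stayed sedentary. CC-Ex rats received monocrotaline and trained on the treadmill while the disease developed. No tissue was pooled, and each library came from the left leg of 1 rat, so n counts animals.

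SLC carriers move amino acids, sugars, ions, metals, phosphate and vitamins across cell and organelle membranes, mostly as exchangers or as cotransporters that use the gradients of sodium or protons. In muscle they set the supply of amino acids for protein synthesis, the release of glutamine and alanine during wasting, the exit of lactate and protons during work, and the zinc pools of cytosol, Golgi and vesicles. Several work only as pairs: the light chains of the Slc7 family reach the surface bound to the heavy chain Slc3a2, and lactate carriers bind the chaperone basigin (Bsg).

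Total counts lay between 37816239 and 50350554 per rat, and the lowest count of any member in a rat was 11. Levels are given as CPM (counts scaled by TMM to a common library size), in the order lowest, median and highest rat of a group. The members together took 0.262 to 0.423% of the counts of a rat, with medians of 0.280% and 0.275% in Sed and Ex and of 0.314% and 0.298% in their CC counterparts. The 8 fast-fiber markers found in the table, of 10 listed, summed to between 73056 and 205563 CPM over the 24 rats. Rats differed more in CC. The median coefficient of variation of a member was 0.189 and 0.178 in Sed and Ex, and 0.251 and 0.303 in CC-Sed and CC-Ex. For all genes the same medians were 0.139, 0.135, 0.220 and 0.263.

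The comparisons asked how CC changed the carriers in sedentary rats (Sed vs. CC-Sed) and in exercised rats (Ex vs. CC-Ex), and how training changed them with and without CC. The mean CC effect is the average of the Log2FC of both CC comparisons in the same model. A Log2FC above 0 means more RNA in the CC group or, for training, in the exercised group. A member passed when its edgeR adjusted p over all 10851 genes was under 0.05, and it was a DEG when its Log2FC was also at least 1 in size. Nothing in bulk tissue can tell fewer cells of a type apart from less RNA per cell.

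In Sed vs. CC-Sed, 12 of the 137 members passed (8.76%, where 6.46% of all genes passed), 3 higher (4.3% of all genes) and 9 lower (2.16% of all genes). For all genes the order was the other way round, with 467 higher and 234 lower. With DESeq2 the members split into 13 higher and 14 lower. In Ex vs. CC-Ex, 2 members passed (1.46%, against 0.995% of all genes): Slc7a6 was higher and Slc39a1 was lower. For the mean CC effect 36 members passed (26.3%, against 27.8% of all genes), 19 higher (17.2% of all genes) and 17 lower (10.6% of all genes). All 12 and both of the 2 were among these 36. The share of members that passed was thus close to that of all genes. Only 1 member, Slc39a1, passed in both single comparisons, which share no rats. DEGs numbered 4 in Sed vs. CC-Sed (1.87% of all genes), 1 in Ex vs. CC-Ex (0.525%) and 5 for the mean CC effect (2.88%).

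The median Log2FC of the members stayed near that of all genes. It was 0.02 in Sed vs. CC-Sed, -0.03 in Ex vs. CC-Ex and -0.02 for the mean CC effect, where all genes had 0.02, 0.01 and 0.01. All 36 members had the same sign in both single comparisons. They were picked by the average of both, which favors equal signs, so this is no separate evidence. The calls within a single comparison depended on single rats. Leaving out 1 rat at a time gave 3 to 23 members in Sed vs. CC-Sed and 0 to 11 in Ex vs. CC-Ex, but 29 to 40 for the mean CC effect. Slc39a1, Slc39a3 and Slc46a1 passed in all 12 such fits of Sed vs. CC-Sed and Slc39a10 in 9, while the other 8 of the 12 members passed in 1 to 5. The rats of Sed and CC-Sed did not overlap for 8 members (3.61% of all genes), 7 lower and 1 higher, the last being Slc7a6.

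**Figure D1:**
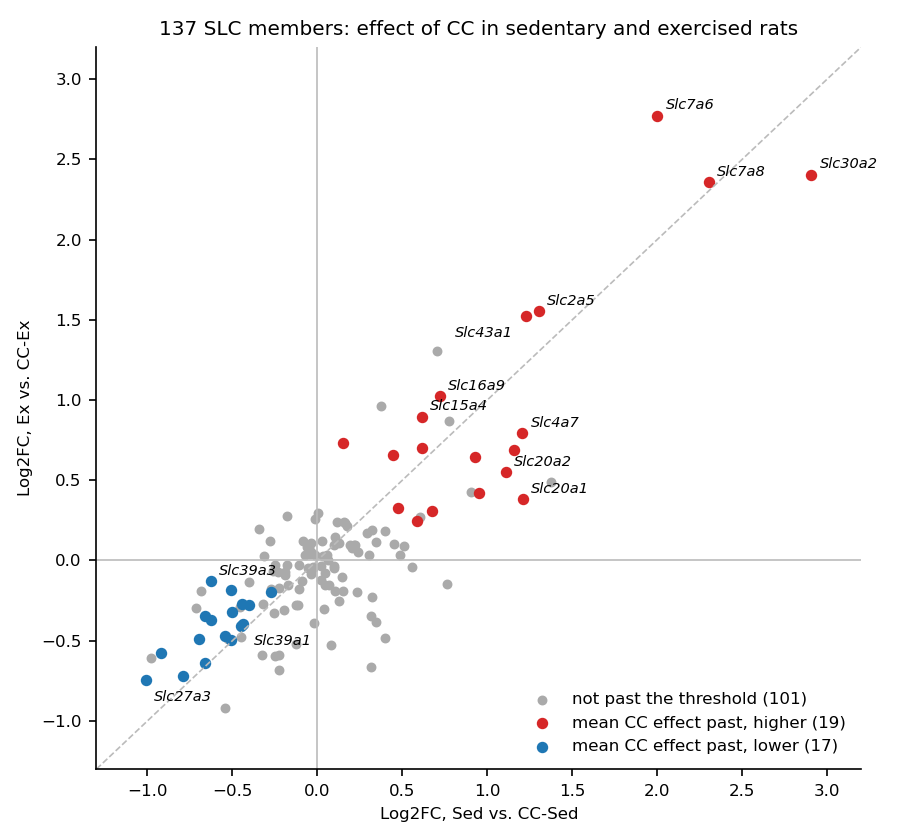
Log2FC of the 137 members in Sed vs. CC-Sed (x axis) and Ex vs. CC-Ex (y axis), 1 point per gene. Red and blue points are the 19 higher and 17 lower members that passed for the mean CC effect, the dashed line marks equal changes, and Slc7a6, Slc7a8 and Slc30a2 lie above 2 on both axes.

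Carriers of amino acids held the largest group of increases. Classes were set by family number, apart from Slc5a6, which was placed with the vitamin carriers by hand. Of 20 members in the amino acid families, 8 rose and 1 fell for the mean CC effect (17.2% and 10.6% of all genes). The class median Log2FC was 0.25 against 0.01 for all genes. The 8 were Slc7a6, Slc7a8, Slc3a2, Slc43a1, Slc43a3, Slc38a2, Slc38a4 and Slc1a1, and the 1 that fell was Slc36a1. Without Slc43a3, left out after its values were seen because it moves purine nucleobases rather than amino acids, 7 of 19 rose and the median was 0.19. The glycine importer Slc6a9, which fell (-0.75 ± 0.20), was placed in another class by its family number and is not in these counts. In the single comparisons 1 of the 20 passed in each, Slc7a8 in Sed vs. CC-Sed and Slc7a6 in Ex vs. CC-Ex.

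Slc7a6, the light chain of y+LAT2, exchanges arginine or lysine for glutamine and sodium. Its levels were 14.9, 18.2 and 20.4 CPM in Sed, 14.1, 16.3 and 20.0 CPM in Ex, 25.1, 59.1 and 157 CPM in CC-Sed and 16.9, 26.9 and 495 CPM in CC-Ex. Every CC-Sed rat was above every Sed rat, while in CC-Ex 4 of 6 rats were above every Ex rat. Of these, replicates 5 and 6 read 495 and 101 CPM and replicates 1 and 3 read 21.3 and 32.4 CPM. CC-Ex replicates 2 and 4 were within the range of Ex. The mean CC effect was 2.39 ± 0.47 (SE, edgeR adjusted p = 0.00168), a 5.23-fold rise. The Log2FC was 2.00 ± 0.65 (SE, edgeR adjusted p = 0.0624) in Sed vs. CC-Sed and 2.77 ± 0.67 (SE, edgeR adjusted p = 0.0443) in Ex vs. CC-Ex. Without CC-Ex replicate 5 the exercised value was 1.18 and the mean CC effect 1.57, and the mean still passed.

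Slc7a8 encodes LAT2, an exchanger of large and small neutral amino acids. It measured 15.8, 17.7 and 20.6 CPM in Sed, 11.7, 14.6 and 22.0 CPM in Ex, 19.8, 73.6 and 216 CPM in CC-Sed and 14.8, 29.6 and 294 CPM in CC-Ex. CC-Sed replicates 1, 3 and 6 and CC-Ex replicates 5 and 6 were far above all controls, and the lowest CC rats lay within the control range. Averaged over both comparisons, the Log2FC was 2.33 ± 0.46 (SE, edgeR adjusted p = 0.00169). The sedentary Log2FC was 2.30 ± 0.65 (SE, edgeR adjusted p = 0.0396) and the exercised one 2.36 ± 0.65 (SE, edgeR adjusted p = 0.0667), the latter 1.16 without CC-Ex replicate 5.

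Their common heavy chain Slc3a2, also called 4F2hc or CD98, carries no substrate of its own. It read 48.3, 60.5 and 65.5 CPM in Sed, 47.9, 54.1 and 58.2 CPM in Ex, 60.6, 79.5 and 139.6 CPM in CC-Sed and 54.7, 72.2 and 184 CPM in CC-Ex. Again CC-Ex replicate 5 and CC-Sed replicate 6 were the highest of their groups, and the ranges of CC and control rats overlapped at their edges. Slc3a2 had a mean Log2FC of 0.66 ± 0.17 (SE, edgeR adjusted p = 0.00812), a smaller step than either light chain, and 0.45 without CC-Ex replicate 5. It passed in neither single comparison. Slc7a2 (CAT2), an arginine carrier of the same family that works without Slc3a2, had a mean Log2FC of 0.19 ± 0.14 (SE, edgeR adjusted p = 0.302) and did not pass.

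Of the 3 Slc43 members 2 rose. Slc43a1 (LAT3) takes up leucine and other branched-chain amino acids without exchange or sodium. Its levels were 10.7, 12.9 and 21.1 CPM in Sed, 8.46, 15.7 and 19.8 CPM in Ex, 19.5, 27.8 and 70.5 CPM in CC-Sed and 15.3, 27.6 and 92.9 CPM in CC-Ex. CC-Sed replicate 3 and CC-Ex replicates 5 and 6 were the high rats, and 4 of 6 CC-Sed rats exceeded every Sed rat. Its mean CC effect was 1.37 ± 0.28 (SE, edgeR adjusted p = 0.00199), with 1.23 ± 0.39 in sedentary and 1.52 ± 0.39 in exercised rats. Slc43a3, the nucleobase carrier, had a mean CC effect of 0.79 ± 0.21 (SE, edgeR adjusted p = 0.0116). The third Slc43 gene was also above 0, at 0.82, without passing.

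The sodium-coupled Slc38 carriers rose less. Slc38a2 (SNAT2), the glutamine and alanine importer that cells raise when amino acids are short, ran at 224, 308 and 339 CPM in Sed, 202, 262 and 313 CPM in Ex, 225, 485 and 556 CPM in CC-Sed and 235, 311 and 376 CPM in CC-Ex. In CC-Sed, 5 of 6 rats were above every Sed rat and replicate 2 was at the low end of Sed, while CC-Ex and Ex overlapped. Its mean CC effect was 0.42 ± 0.13 (SE, edgeR adjusted p = 0.0209), and it was 0.36 and no longer passed without CC-Sed replicate 6. Slc38a4 (SNAT4), a carrier of small neutral amino acids, read 31.7, 48.1 and 56.3 CPM in Sed, 28.6, 38.8 and 45.2 CPM in Ex, 32.1, 65.4 and 86.7 CPM in CC-Sed and 37.6, 56.9 and 99.0 CPM in CC-Ex. Here 4 of 6 CC rats of each training state lay above all rats of their control group. Slc38a4 had a mean CC effect of 0.55 ± 0.16 (SE, edgeR adjusted p = 0.0164).

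Among the remaining amino acid carriers of the textbook list, Slc36a1, a proton-coupled exporter of amino acids from lysosomes, had a mean CC effect of -0.34 ± 0.13 (SE, edgeR adjusted p = 0.0472) and passed in 7 of 24 fits that left out 1 rat. Slc1a4 and Slc1a5, exchangers of alanine, serine, cysteine and glutamine, had 0.31 ± 0.23 and -0.45 ± 0.34 without passing. Slc38a9, the lysosomal arginine sensor of mTORC1, stood at 0.12 ± 0.09.

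A list of 18 genes of the amino acid response, the ATF4 program that also drives Slc38a2 and Slc3a2 in many cells, was read beside the carriers. Of its 13 genes in the table, 3 rose and 1 fell for the mean CC effect (17.2% and 10.6% of all genes). The median Log2FC of the list was 0.18. The 3 were Eif4ebp1, which restrains cap-dependent translation (1.98 ± 0.34), Chac1, which degrades glutathione (1.50 ± 0.37), and the transcription factor Cebpb (0.49 ± 0.15). The stress sensor Sesn2 fell by 0.26 on the log2 scale and Atf4 itself read 0.37 ± 0.15 without passing (edgeR adjusted p = 0.0691). The summed level of the list was 507 to 632 CPM in Sed, 498 to 599 CPM in Ex, 609 to 1000.4 CPM in CC-Sed and 539 to 1521 CPM in CC-Ex. The part of this program in the carrier changes was not tested.

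**Figure D2:**
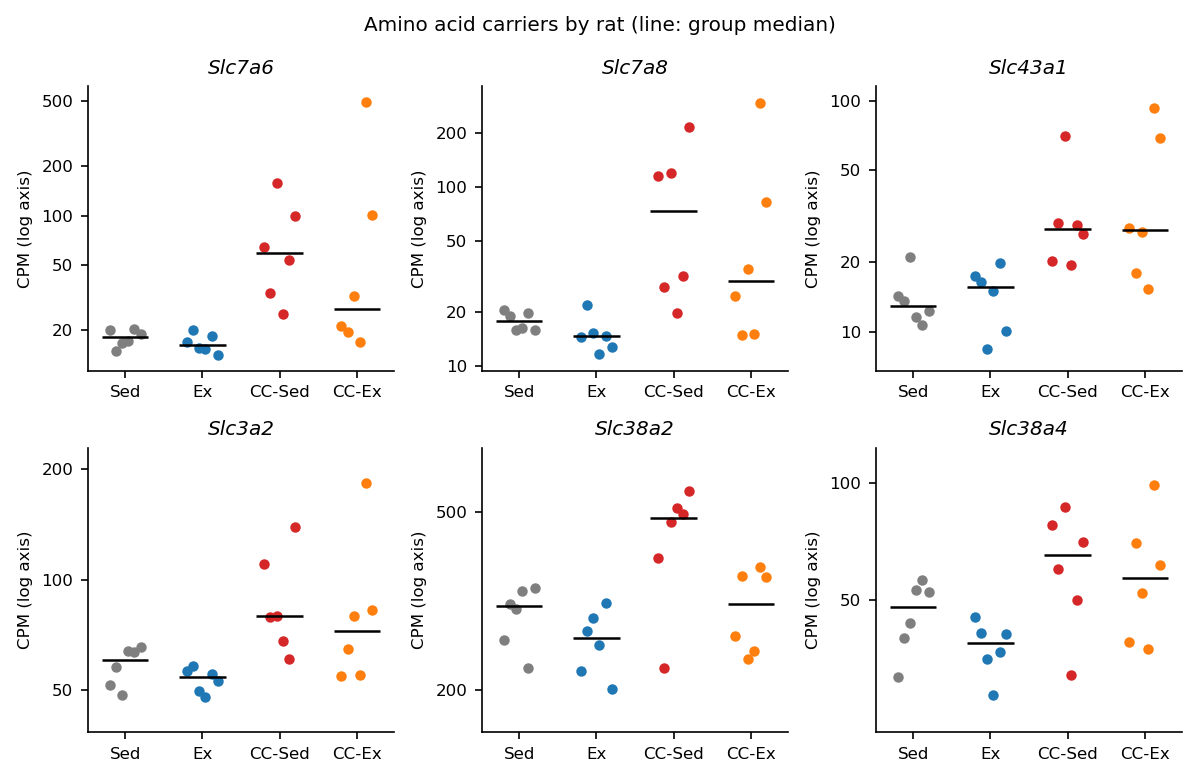
CPM of 6 amino acid carriers on log axes, 1 point per rat in replicate order from left to right, with a line at the group median. Slc7a6, Slc7a8 and Slc43a1 show a few CC rats far above the rest, up to 495 CPM for Slc7a6 in CC-Ex, whereas Slc38a2 shows 5 of 6 CC-Sed rats above all Sed rats.

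Among metal carriers more members fell than rose. The class of zinc, copper and manganese carriers had 15 members. Of these, 5 fell and 1 rose for the mean CC effect (10.6% and 17.2% of all genes). Cells import zinc to the cytosol through the ZIP proteins of the Slc39 family and remove it to vesicles, Golgi or the outside through the ZnT proteins of the Slc30 family. All 7 Slc39 members had a negative mean CC effect, between -0.65 and -0.05 with a median of -0.41, and 4 of them passed: Slc39a1, Slc39a3, Slc39a10 and Slc39a13. The same 4 passed in Sed vs. CC-Sed, where they were 4 of the 9 members that fell. Of 6 Slc30 members, Slc30a2 rose, Slc30a6 fell and 4 did not pass.

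Promoter sequence is shown for Slc30a2, Slc39a1 and Slc39a13, as the zinc carriers with the largest rise, the smallest p and the largest fall. Metal-responsive transcription factor 1 binds metal response elements with the core TGCNCNC, searched here on both strands as TGCGCNC or TGCACNC. The stretches are the 250 bases before the gene start in the RefSeq annotation of GRCr8, 5′ to 3′ on the strand of the gene, with matches in capitals. They lie at chr5:151843201-151843450 on the plus strand for Slc30a2, at chr2:178000869-178001118 on the plus strand for Slc39a1 and at chr3:97503045-97503294 on the minus strand for Slc39a13.
Slc30a2: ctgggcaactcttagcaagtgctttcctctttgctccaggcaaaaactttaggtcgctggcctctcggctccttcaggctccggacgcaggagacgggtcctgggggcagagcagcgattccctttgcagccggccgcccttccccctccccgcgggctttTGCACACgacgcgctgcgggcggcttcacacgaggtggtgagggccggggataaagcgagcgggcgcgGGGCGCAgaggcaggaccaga
Slc39a1: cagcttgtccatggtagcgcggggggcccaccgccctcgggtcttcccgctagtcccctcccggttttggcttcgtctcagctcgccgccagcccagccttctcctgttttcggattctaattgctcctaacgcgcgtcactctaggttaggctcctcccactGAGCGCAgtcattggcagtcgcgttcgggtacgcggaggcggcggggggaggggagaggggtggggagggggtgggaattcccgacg
Slc39a13: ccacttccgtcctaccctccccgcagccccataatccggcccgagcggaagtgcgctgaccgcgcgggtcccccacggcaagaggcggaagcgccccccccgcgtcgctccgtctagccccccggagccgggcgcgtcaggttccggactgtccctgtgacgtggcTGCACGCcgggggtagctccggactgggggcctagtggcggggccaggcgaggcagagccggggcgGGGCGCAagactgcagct
The promoter of Slc30a2 held 2 matches, starting 89 and 21 bases before the gene start. That of Slc39a1 held 1 at 87 bases, and that of Slc39a13 held 2 at 84 and 18 bases. The promoters of Slc39a3 and Slc39a10, which also fell, held 0 matches and are not shown. RefSeq promoters were found for 107 of the 137 members. The metal motif was present in 20.6% of 33469 promoters and in 29.9% of the members, in 5 of 13 members that rose and 4 of 15 that fell. Of the 5, only Slc30a2 is a zinc carrier, and of the 4, Slc39a1 and Slc39a13 are. Other motifs were searched too, and their shares follow for the members and then for all promoters. The amino acid response motif TGATGNAA had 3.74% and 3.4%, and the E-box CACGTG had 15.9% and 5.59%. The FOXO motif GTAAACA had 0% and 3.21%, and the glucocorticoid motif AGAACA had 13.1% and 17.5%. These matches are letters in a window and were not tested as binding sites.

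Slc39a1 (ZIP1), the general zinc importer of the plasma membrane, had the smallest p of all members. Its levels were 51.8, 56.1 and 60.9 CPM in Sed, 52.2, 55.1 and 62.0 CPM in Ex, 38.6, 40.0 and 46.7 CPM in CC-Sed and 33.6, 41.3 and 50.4 CPM in CC-Ex. All 12 CC rats were below all 12 control rats. Slc39a1 was the only member whose CC and control rats did not overlap, which held for 0.138% of all genes, counting both directions. Its mean CC effect was -0.43 ± 0.06 (SE, edgeR adjusted p = 0.000249), with -0.45 ± 0.09 (SE, edgeR adjusted p = 0.0103) in Sed vs. CC-Sed and -0.41 ± 0.09 (SE, edgeR adjusted p = 0.0329) in Ex vs. CC-Ex. The exercised call held in 2 of 12 fits that left out 1 rat, and its Log2FC stayed between -0.46 and -0.36. The members most like Slc39a1 in log2 CPM over the 24 rats were Slc27a3 (Pearson r = 0.891), Slc39a13 (0.890) and Slc35e4 (0.876). These are descriptions, as the genes were read from the same libraries and the rats differ in group. Within groups the correlations were 0.823, 0.788 and 0.746.

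Slc39a3 (ZIP3), a second surface importer, measured 11.9, 13.8 and 17.2 CPM in Sed, 10.1, 11.5 and 13.3 CPM in Ex, 7.01, 9.45 and 11.0 CPM in CC-Sed and 8.45, 10.1 and 12.7 CPM in CC-Ex. CC-Sed lay wholly below Sed, all Ex rats were themselves below the Sed median, and CC-Ex and Ex overlapped. Its Log2FC was -0.63 ± 0.13 (SE, edgeR adjusted p = 0.0136) in sedentary rats and -0.13 ± 0.13 (SE, edgeR adjusted p = 0.547) in exercised rats. The difference between both, the interaction, was 0.50 ± 0.19 (SE, edgeR unadjusted p = 0.0139, adjusted p = 1.00), so it did not pass.

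Slc39a10 (ZIP10), an importer abundant in hematopoietic and renal cells, read 8.88, 11.2 and 14.1 CPM in Sed, 7.61, 9.00 and 14.0 CPM in Ex, 5.29, 7.47 and 8.61 CPM in CC-Sed and 5.65, 8.03 and 8.49 CPM in CC-Ex. Again CC-Sed did not overlap Sed. Slc39a10 had a mean CC effect of -0.50 ± 0.11 (SE, edgeR adjusted p = 0.00389), made of -0.66 ± 0.16 in sedentary and -0.35 ± 0.16 in exercised rats. Slc39a13 (ZIP13), which sits in intracellular vesicles and is needed by connective tissue cells, had 19.3, 23.8 and 30.6 CPM in Sed, 25.5, 27.0 and 30.6 CPM in Ex, 9.32, 14.7 and 21.7 CPM in CC-Sed and 10.4, 17.9 and 27.3 CPM in CC-Ex. CC-Sed replicates 1, 3 and 6 and CC-Ex replicate 5 were lowest, and 5 of 6 CC rats of each training state lay below all of their controls. Slc39a13 had a mean CC effect of -0.65 ± 0.14 (SE, edgeR adjusted p = 0.00270), nearly equal in sedentary (-0.66 ± 0.19) and exercised rats (-0.64 ± 0.19).

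Slc30a2 (ZnT2) loads zinc into vesicles and lysosomes, and had the largest mean CC effect of any member. Its values were 0.763, 1.24 and 5.47 CPM in Sed, 0.344, 1.52 and 3.30 CPM in Ex, 1.29, 6.13 and 42.1 CPM in CC-Sed and 0.840, 2.68 and 34.2 CPM in CC-Ex. CC-Sed replicates 1, 3 and 6 and CC-Ex replicates 3, 5 and 6 lay above all rats of their control group, whereas the other CC rats were within the control range, and Sed replicate 5 was high at 5.47 CPM. The mean CC effect was 2.66 ± 0.66 (SE, edgeR adjusted p = 0.00718), and 1.88 without CC-Ex replicate 5, still passing. Neither single comparison passed, with 2.91 ± 0.94 (SE, edgeR adjusted p = 0.0619) in sedentary and 2.40 ± 0.94 (SE, edgeR adjusted p = 0.145) in exercised rats. Without CC-Ex replicate 5 the exercised value was 0.90. Slc30a6 (ZnT6), a partner of the Golgi zinc importer, had the smallest change of the class that passed, -0.24 ± 0.07 (SE, edgeR adjusted p = 0.0225).

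**Figure D3:**
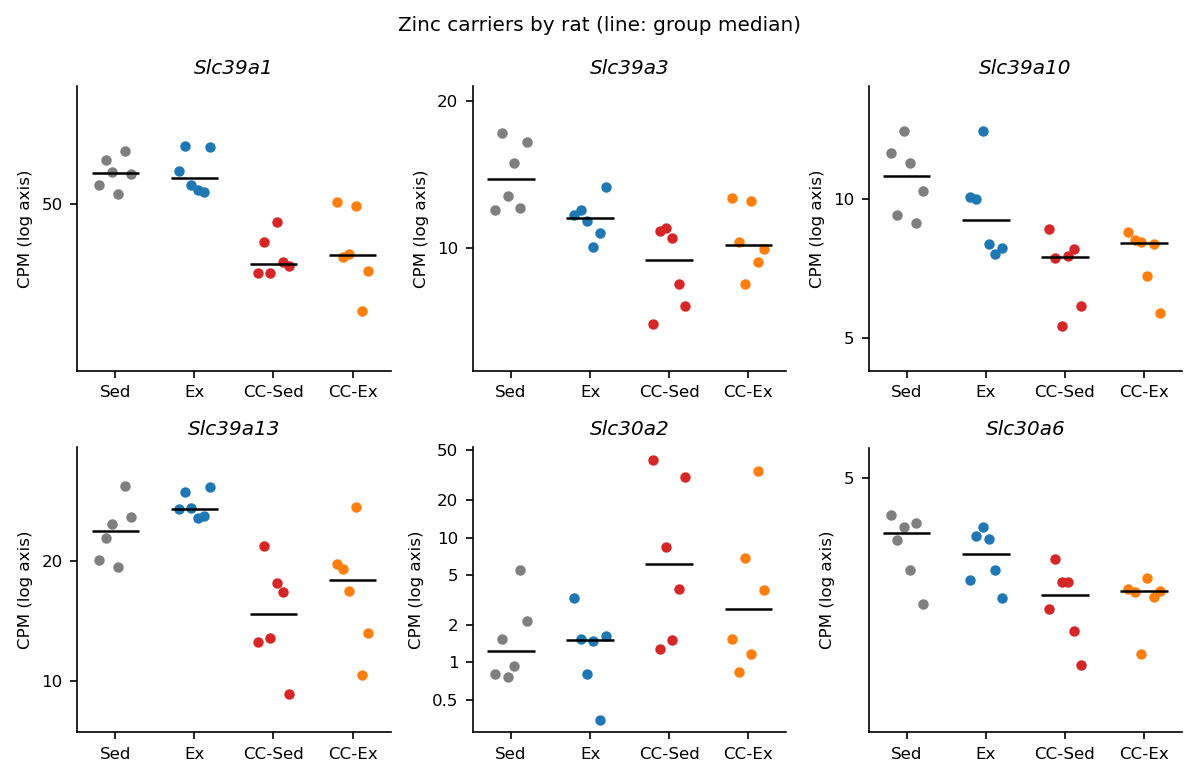
CPM of 6 zinc carriers on log axes, 1 point per rat in replicate order, with a line at the group median. For Slc39a1 the 12 CC rats sit between 33.6 and 50.4 CPM, all below the 12 control rats, while Slc30a2 is high in some CC rats only.

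Both importers of inorganic phosphate were higher. Slc20a1 (PiT-1) and Slc20a2 (PiT-2) are the sodium-phosphate cotransporters of most cells, and both rose for the mean CC effect and in Sed vs. CC-Sed. Slc20a1 read 11.0, 14.9 and 16.7 CPM in Sed, 12.6, 17.0 and 18.2 CPM in Ex, 13.3, 26.1 and 76.8 CPM in CC-Sed and 10.2, 18.2 and 41.8 CPM in CC-Ex. CC-Sed replicate 4 stood out at 76.8 CPM, and the exercised groups overlapped. Its Log2FC was 1.21 ± 0.33 (SE, edgeR adjusted p = 0.0350) in sedentary rats, 0.76 without CC-Sed replicate 4, and 0.38 ± 0.32 (SE, edgeR adjusted p = 0.471) in exercised rats. Slc20a2 measured 12.8, 18.4 and 22.6 CPM in Sed, 13.9, 16.9 and 33.1 CPM in Ex, 19.7, 35.3 and 70.7 CPM in CC-Sed and 10.6, 31.5 and 37.2 CPM in CC-Ex. In CC-Sed 5 of 6 rats were above every Sed rat, and in CC-Ex replicate 4 was below every Ex rat. Slc20a2 had 1.11 ± 0.31 (SE, edgeR adjusted p = 0.0372) in Sed vs. CC-Sed, 0.55 ± 0.30 (SE, edgeR adjusted p = 0.274) in Ex vs. CC-Ex and 0.83 ± 0.22 (SE, edgeR adjusted p = 0.00887) for the mean. Slc37a4, which takes glucose 6-phosphate into the endoplasmic reticulum, had a mean CC effect of -0.79 ± 0.31 (SE, edgeR adjusted p = 0.0571) and did not pass.

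Sugar and polyol carriers changed in both directions. Of 10 members 2 rose and 1 fell for the mean CC effect (17.2% and 10.6% of all genes). Slc2a5 (GLUT5), the fructose carrier, read 0.535, 0.693 and 1.60 CPM in Sed, 0.464, 0.780 and 1.35 CPM in Ex, 0.753, 1.70 and 4.61 CPM in CC-Sed and 1.32, 1.85 and 5.02 CPM in CC-Ex. CC-Ex lay above all Ex rats in 5 of 6 rats and CC-Sed above all Sed rats in 3 of 6. Slc2a5 had a mean CC effect of 1.43 ± 0.30 (SE, edgeR adjusted p = 0.00280). Slc2a1 (GLUT1), the basal glucose carrier found in muscle, vessels and nerve sheath, had 1.66, 2.70 and 3.89 CPM in Sed, 1.33, 2.79 and 5.62 CPM in Ex, 2.39, 5.75 and 10.7 CPM in CC-Sed and 2.23, 5.31 and 6.98 CPM in CC-Ex. The highest rats were CC-Sed replicates 1 and 6 and CC-Ex replicate 3, and Ex replicate 1 was the highest control. Slc2a1 had 0.92 ± 0.26 (SE, edgeR adjusted p = 0.0142). Slc2a12 (GLUT12), an insulin-responsive carrier, fell, with a Log2FC of -0.51 ± 0.17 (SE, edgeR adjusted p = 0.0333) that passed in 16 of 24 fits that left out 1 rat. Slc2a3, a high-affinity glucose carrier, and Slc2a13, a proton-coupled inositol carrier, had 0.28 ± 0.11 (SE, edgeR adjusted p = 0.0701) and 0.93 ± 0.36 (SE, edgeR adjusted p = 0.0572).

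Lactate carriers did not pass. Slc16a1 (MCT1), which imports lactate in oxidative fibers, read 30.7, 52 and 76.3 CPM in Sed, 34.7, 60.2 and 120.2 CPM in Ex, 33.1, 89.6 and 126 CPM in CC-Sed and 41.1, 66.1 and 94.3 CPM in CC-Ex, for a mean CC effect of 0.26 ± 0.22 (SE, edgeR adjusted p = 0.390). Slc16a3 (MCT4), the lactate exporter of glycolytic fibers, was at 171, 269 and 309 CPM in Sed, 222, 272 and 309 CPM in Ex, 43.2, 187 and 304 CPM in CC-Sed and 53.0, 166 and 369 CPM in CC-Ex. Its lowest rats were lower in both CC groups, the ranges overlapped at the top, and the mean CC effect was -0.51 ± 0.31 (SE, edgeR adjusted p = 0.209). Within the 7 Slc16 members only Slc16a9, a carnitine exporter, passed, at 0.87 ± 0.27 (SE, edgeR adjusted p = 0.0200). Its levels were 0.978, 1.99 and 3.18 CPM in Sed, 0.900, 1.31 and 1.97 CPM in Ex, 1.76, 2.77 and 6.07 CPM in CC-Sed and 1.35, 2.53 and 4.74 CPM in CC-Ex, with Sed split into low and high rats. Bsg, the chaperone of both lactate carriers, stood at -0.08 ± 0.08 without passing.

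Ion carriers were split. Of 20 members for sodium, proton, chloride and bicarbonate 2 rose and 3 fell (17.2% and 10.6% of all genes). Their median Log2FC was 0.00. Slc4a7 (NBCn1), which brings in bicarbonate with sodium, read 2.22, 3.14 and 4.93 CPM in Sed, 1.74, 3.60 and 5.02 CPM in Ex, 2.96, 8.07 and 12.9 CPM in CC-Sed and 1.92, 4.52 and 14.4 CPM in CC-Ex. CC-Sed replicates 1 and 6 and CC-Ex replicate 5 were highest, and the lowest CC rats were within the control range. The mean CC effect was 1.00 ± 0.28 (SE, edgeR adjusted p = 0.0144). Slc12a4, the potassium-chloride cotransporter KCC1, also rose, with 0.68 ± 0.21 (SE, edgeR adjusted p = 0.0203). The 3 that fell belong to the Slc26 anion exchangers, Slc26a2, Slc26a6 and Slc26a8. Slc26a2, the sulfate importer that feeds proteoglycan synthesis, had 1.57, 2.07 and 5.06 CPM in Sed, 1.47, 2.07 and 3.11 CPM in Ex, 1.30, 1.38 and 1.80 CPM in CC-Sed and 0.967, 1.26 and 1.78 CPM in CC-Ex, with Sed replicate 5 high at 5.06 CPM. Its Log2FC was -0.75 ± 0.17 (SE, edgeR adjusted p = 0.00407) for the mean and -0.79 ± 0.24 (SE, edgeR adjusted p = 0.0495) in sedentary rats, the latter -0.46 and no longer passing without Sed replicate 5.

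Other ion carriers of the textbook list did not pass. Slc12a2 (NKCC1), the sodium-potassium-chloride cotransporter, had 0.20 ± 0.11 (SE, edgeR adjusted p = 0.171). The cardiac-type sodium-calcium exchanger Slc8a1 had -0.46 ± 0.24 (SE, edgeR adjusted p = 0.147), and none of 5 carriers for calcium and magnesium passed. Among 12 genes for partners and pumps in the table, of 13 listed, 2 rose, among them Nedd4l (0.53 ± 0.15), the ubiquitin ligase that removes sodium channels from the membrane. Their list had a median Log2FC of 0.01, and 17.2% of all genes rose.

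Among smaller classes, the carriers with lower RNA included Slc46a1, Slc27a3 and Slc6a9. Slc46a1, the proton-coupled folate importer, was at 1.41, 1.61 and 2.37 CPM in Sed, 1.15, 1.59 and 1.98 CPM in Ex, 0.895, 1.04 and 1.30 CPM in CC-Sed and 0.868, 1.14 and 1.38 CPM in CC-Ex. CC-Sed lay wholly below Sed. Slc46a1 had -0.59 ± 0.11 (SE, edgeR adjusted p = 0.00122) for the mean and -0.70 ± 0.16 (SE, edgeR adjusted p = 0.0148) in Sed vs. CC-Sed, and it was the 1 of 7 vitamin carriers that passed. Slc27a3, an acyl-CoA synthetase of the fatty acid transport family, read 0.969, 1.01 and 1.13 CPM in Sed, 0.665, 1.08 and 1.90 CPM in Ex, 0.366, 0.509 and 0.698 CPM in CC-Sed and 0.258, 0.668 and 1.26 CPM in CC-Ex. Again Sed and CC-Sed did not overlap, and 3 of 6 CC-Ex rats were below every Ex rat. Slc27a3 was the only DEG among the decreases in Sed vs. CC-Sed, with -1.01 ± 0.29 (SE, edgeR adjusted p = 0.0452), and -0.88 ± 0.20 (SE, edgeR adjusted p = 0.00491) for the mean.

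Slc6a9 (GlyT1), the glycine importer, measured 1.17, 1.28 and 3.10 CPM in Sed, 0.987, 1.63 and 2.53 CPM in Ex, 0.502, 0.758 and 1.24 CPM in CC-Sed and 0.863, 1.07 and 1.24 CPM in CC-Ex. Sed replicate 5 was high at 3.10 CPM, and CC-Sed replicates 3 and 4 were lowest. Slc6a9 had a Log2FC of -0.92 ± 0.28 (SE, edgeR adjusted p = 0.0495) in Sed vs. CC-Sed, -0.61 and no longer passing without Sed replicate 5, and -0.75 ± 0.20 (SE, edgeR adjusted p = 0.00918) for the mean. The creatine carrier Slc6a8 did not pass, at -0.13 ± 0.12 (SE, edgeR adjusted p = 0.386). Carriers with higher RNA included Slc28a2, a sodium-coupled nucleoside importer (0.40 ± 0.12), and Slc49a4 (0.44 ± 0.15). Slc15a4, a lysosomal carrier of histidine and peptides, had 0.76 ± 0.27 (SE, edgeR adjusted p = 0.0430), but its exercised value of 0.90 ± 0.39 became 0.04 and the mean 0.31 without CC-Ex replicate 5, where the mean no longer passed.

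The class of nucleotide sugar carriers, which supply glycosylation in the Golgi, was the whole Slc35 family with 20 members. It was set by family number, so it can hold genes with other substrates or none known. The substrate of each gene was not checked. For the mean CC effect 4 fell (10.6% of all genes), none rose (17.2% of all genes), and the median Log2FC was -0.08. The 4 were Slc35a4, Slc35b4, Slc35c1 and Slc35e4, with mean CC effects from -0.50 to -0.36. Slc35a4 read 69.3, 74.3 and 77.3 CPM in Sed, 63.5, 75.8 and 81.4 CPM in Ex, 41.9, 46.5 and 75.4 CPM in CC-Sed and 50.2, 54.7 and 76.4 CPM in CC-Ex, and all control rats were in a narrow band. In each CC group most rats were below it, and CC-Sed replicate 4 and CC-Ex replicates 1 and 4 were within it. Slc35a4 had -0.50 ± 0.13 (SE, edgeR adjusted p = 0.0283) in sedentary rats and -0.41 ± 0.09 (SE, edgeR adjusted p = 0.00393) for the mean.

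Of the 40 carriers listed from textbook knowledge, 36 were in the table. Of these, 12 passed for the mean CC effect (9 higher and 3 lower) and 24 did not, where 27.8% of all genes passed. Slc38a3, Slc6a6, Slc22a5, Slc16a10, Slc12a7, Slc4a2 and Slc8a3 had a mean CC effect smaller than its standard error. Slc7a1, Slc7a5, Slc1a3 and Slc5a3 were not analysed here.

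**Figure D4:**
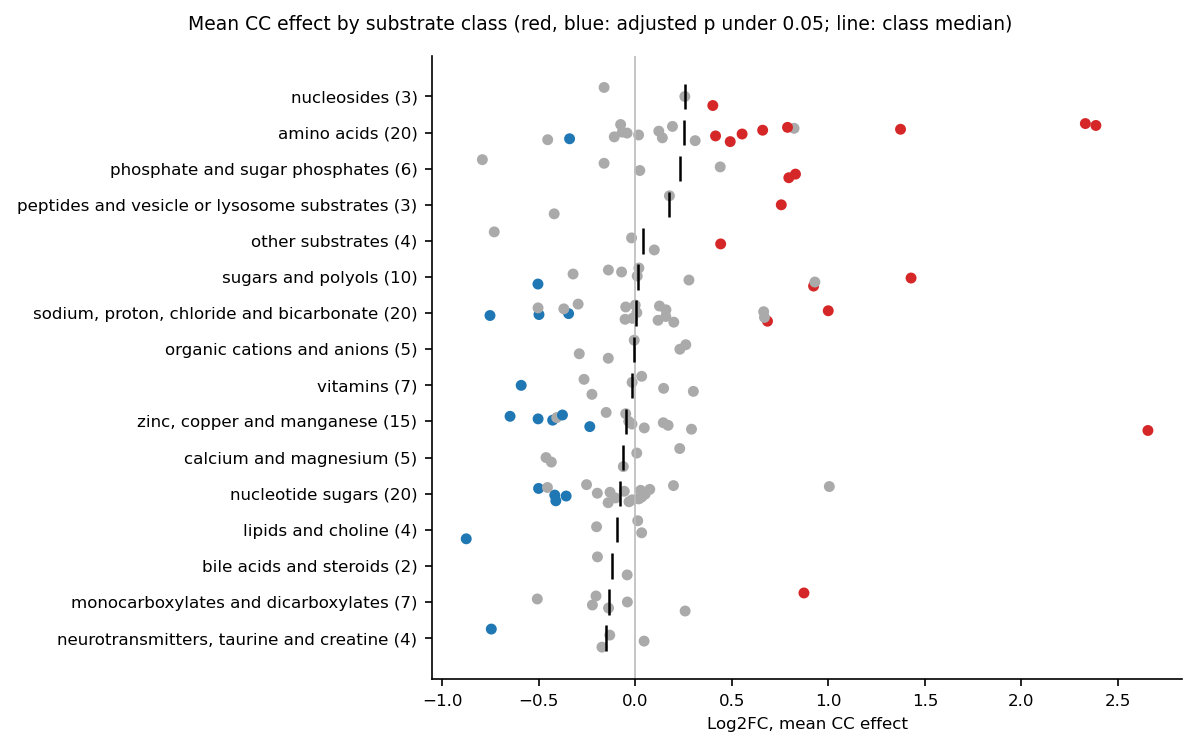
Mean CC effect (Log2FC, x axis) of 135 carriers by substrate class (y axis, number of members in brackets). There is 1 point per gene and a line at the class median. Classes follow the family number, apart from Slc5a6. Red and blue points passed at an edgeR adjusted p under 0.05: the amino acid families hold 8 of the 19 red points (7 without Slc43a3), zinc, copper and manganese carriers hold 5 of the 17 blue ones, and nucleotide sugar carriers hold 4.

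The CC rats differed in how many carriers left the control range. The counts below cover the members that passed, which were picked on these same rats, and no such count was made over all genes. Of the 19 higher members, CC-Ex replicate 5 was above all 12 controls for 18, CC-Sed replicate 6 for 17, and CC-Ex replicate 4 for 0. Of the 17 lower members, CC-Sed replicate 6 was below all controls for 16, CC-Sed replicate 1 for 15, CC-Ex replicate 6 for 14, and CC-Ex replicate 1 for 2. Over all members the leading principal component took 42.9% of the variance. CC-Ex replicate 5 lay furthest out at 12.7, followed by CC-Sed replicates 6 and 1 at 7.84 and 6.77, and the 12 controls were between -3.18 and -0.59. CC-Sed replicate 4 and CC-Ex replicates 1, 2 and 4 sat among the controls. Over all genes CC-Ex replicate 5 also lay furthest out, at 96.5, followed by CC-Sed replicates 6 and 1 at 51.7 and 47.5. Without CC-Ex replicate 5, 34 members passed for the mean CC effect, and neither Slc39a1 nor Slc7a6 passed in Ex vs. CC-Ex.

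**Figure D5:**
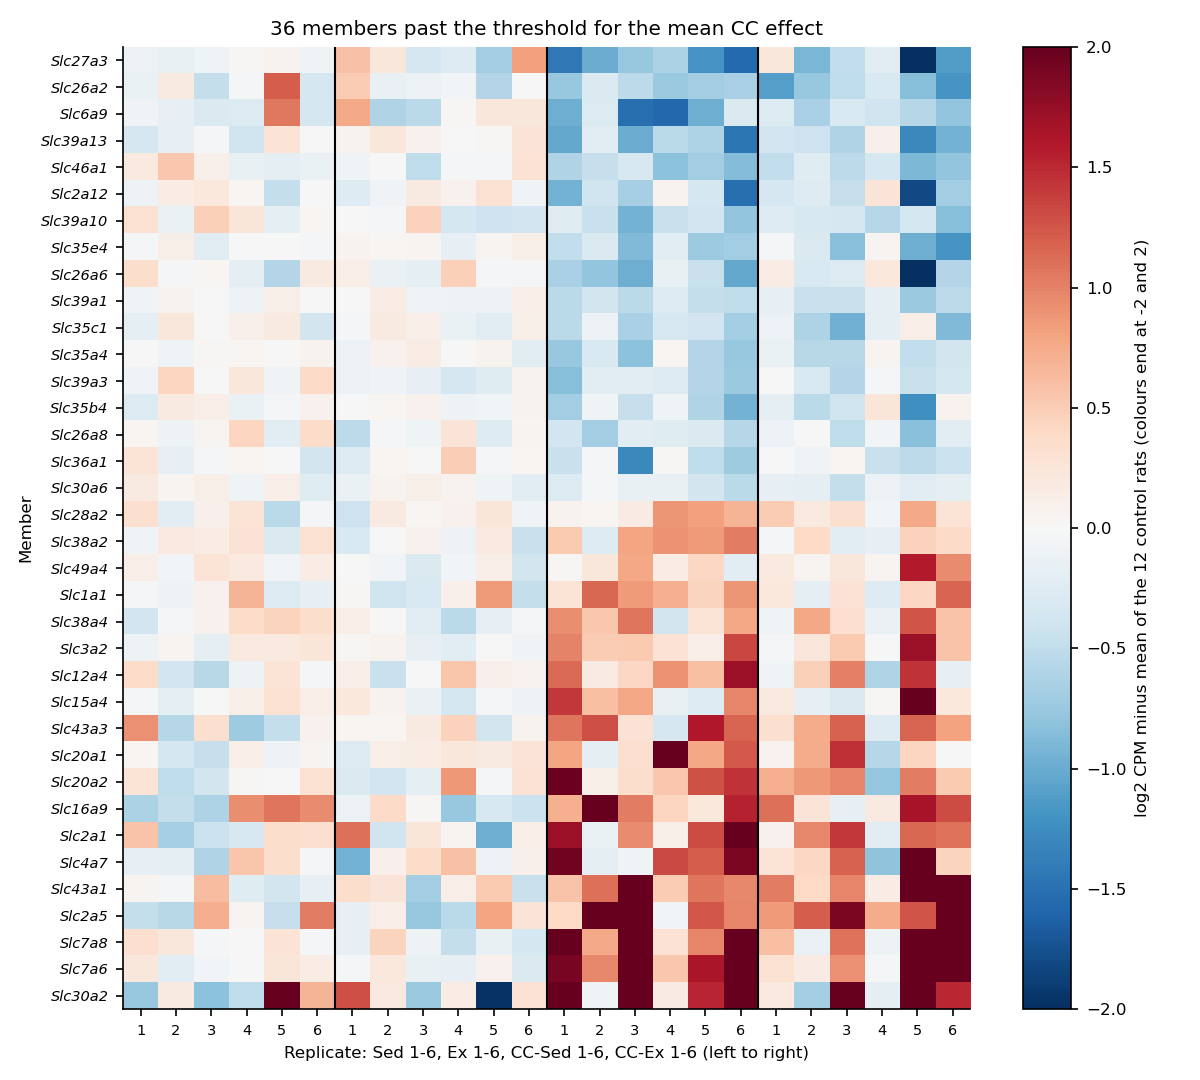
Log2 CPM of the 36 members that passed for the mean CC effect, as the difference from the mean of the 12 control rats, with members in rows and rats in columns (Sed, Ex, CC-Sed and CC-Ex from left to right, replicates 1 to 6 in each). Controls are near 0, and CC-Sed replicates 1 and 6 and CC-Ex replicate 5 show the deepest colors, while CC-Ex replicates 1 and 4 resemble controls.

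Markers of other cell types also moved with CC. Of all genes, 17.2% rose and 10.6% fell for the mean CC effect. Of 6 fibroblast markers, all in the table, 3 fell for the mean CC effect, the collagens Col1a1, Col1a2 and Col3a1, and the list median was -1.19. Their summed level was 399 to 2836 CPM in Sed, 830.2 to 4962 CPM in Ex, 481 to 1494 CPM in CC-Sed and 151 to 1571 CPM in CC-Ex. Of 5 endothelial markers in the table, 2 rose, Vwf (1.26 ± 0.18) and Kdr (0.60 ± 0.14), while Tek, Cdh5 and Egfl7 did not pass and the list median was -0.01. Of 3 erythroid markers 2 rose. Of 2 adipocyte markers in the table, of 5 listed, Adipoq fell (-1.09 ± 0.40) and Fabp4 read -0.01 ± 0.14. Among the other lists, none of the slow-fiber, fast-fiber, macrophage or nerve markers passed. Their list medians for the mean CC effect were 0.81, -0.19, -0.09 and -0.55. The slow-fiber median was 1.70 in Sed vs. CC-Sed and 0.16 in Ex vs. CC-Ex, so the lack of calls does not show unchanged slow-fiber RNA. The slow-fiber sum ranged from 770 to 4025 CPM in Sed, 1001 to 10707 CPM in Ex, 1170.1 to 11812 CPM in CC-Sed and 685 to 9060 CPM in CC-Ex, with wide overlap. A slow-fiber score was taken as the mean log2 CPM of the slow-fiber markers in each rat, not as this sum. With the score as a covariate 16 members passed in Sed vs. CC-Sed (8 higher and 8 lower) and 44 for the mean CC effect. The part of fibroblasts, vessels, blood and fat cells in the carrier results was not tested.

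Training by itself gave no calls. In Sed vs. Ex 0 members passed with edgeR, as with DESeq2 and limma-voom, and 0% of all genes passed. At an unadjusted p under 0.05 there were 2 members with edgeR (1.09% of all genes), 2 with DESeq2 and 7 with limma-voom. In CC-Sed vs. CC-Ex the counts were also 0 with all 3 tools, with 2 (2.16% of all genes), 2 and 8 at an unadjusted p, and for the interaction 0, with 4 (1.42% of all genes), 4 and 4. In all 3 comparisons these edgeR shares of all genes were smaller than the share of 0.05 that the unadjusted threshold gives when no gene differs. The 4 groups shared an estimate of the spread for each gene, and rats differed more in CC. The part of this in the small shares was not tested. Among the members, 130 of 137 were within 0.5 of no change in Sed vs. Ex and 131 of 137 in CC-Sed vs. CC-Ex.

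The member with the smallest p between the CC groups was Slc38a2, with -0.53 ± 0.18 (SE, edgeR unadjusted p = 0.00731, adjusted p = 1.00). All 6 CC-Ex rats were below the median of CC-Sed, though the groups overlapped because CC-Sed replicate 2 was low. Slc20a1 pointed the same way without passing, at -0.61 ± 0.32, or -0.16 without CC-Sed replicate 4. In saline rats the smallest p belonged to Slc39a3 (-0.30 ± 0.13 (SE, edgeR unadjusted p = 0.0309, adjusted p = 1.00)), where all 6 Ex rats were below the Sed median. None of these passed, and a p above the threshold does not show that trained and sedentary muscle had equal levels.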

How the data were processed

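Libraries were poly-A selected and stranded, from 6 rats per group. The authors used Trim Galore for trimming and Salmon for quantification against rat transcripts (mRatBN7.2), and then summed to genes. What they deposited are unscaled estimated counts, whole numbers of at least 10 in every rat. Genes under that minimum were not analysed here. Counts were fitted in R 4.3.3 with edgeR 4.0.16 (TMM scaling, quasi-likelihood test, 4 group means, all 24 rats), and p-values were adjusted over all 10851 genes by the Benjamini-Hochberg method. The standard error is the size of the Log2FC divided by the square root of F. Alternatives used DESeq2 1.42.0, limma 3.58.1, other scaling, filters, covariates and rats left out, and the fits were tested on simulated data.

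Members and lists were chosen with earlier results of these data known. Genes are named where they passed (at most the 15 largest changes per comparison), where textbook knowledge lists them, or where their p was among the 5 smallest in a comparison with few calls. Slc1a1, Slc12a4, Slc26a6, Slc26a8, Slc28a2, Slc30a6, Slc35b4, Slc35c1, Slc35e4, Slc49a4 and the listed genes of other cell types were named after their values were seen. Promoters came from RefSeq (GRCr8), whose coordinates differ from those of mRatBN7.2. Some genes that this rule names are not reported here.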

Additional observations from a re-analysis of the deposited data

Results flagged for a closer look

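Among the 26 genes examined, 6 of 104 gene and group pairs had 1 rat far from the other 5, by the gap to its neighbor divided by the range of the group, both in log2 CPM. Chance gives about 1 in 20. The high rats were CC-Ex replicate 5 for Slc15a4 (56.8 CPM) and Slc3a2 (184 CPM), CC-Sed replicate 3 for Slc43a1 (70.5 CPM) and Sed replicate 5 for Slc6a9 (3.10 CPM). The low rats were Ex replicate 1 for Slc20a1 (12.6 CPM) and CC-Ex replicate 4 for Slc20a2 (10.6 CPM). On the linear CPM scale, tried after the data were seen, 14 pairs had such a rat, 5 of them among the 6. The other 9 were all high, among them CC-Ex replicate 5 for Slc7a6 (495 CPM), Slc7a8 (294 CPM) and Slc30a2 (34.2 CPM), CC-Sed replicate 4 for Slc20a1 (76.8 CPM) and Sed replicate 5 for Slc26a2 (5.06 CPM) and Slc30a2 (5.47 CPM).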

How the results depend on the processing

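Members that passed for the mean CC effect numbered 34 to 44 under the other scalings, filters, covariates and tests, against 36, and 5 under the DEG rule. For Sed vs. CC-Sed the count of 12 became 27 with DESeq2, 30 with limma-voom and 4 under the DEG rule. For Ex vs. CC-Ex the count of 2 became 7 with DESeq2 and 7 with limma-voom, 1 with the slow-fiber score as a covariate and 1 under the DEG rule, and 0 with upper-quartile scaling, with only both groups in the model or with the library number as a covariate. Leaving out 1 rat gave 3 (without Sed replicate 3 or CC-Sed replicate 6) to 23 (without CC-Sed replicate 2) for Sed vs. CC-Sed, where each rat moved the count by over 1.5 times. It gave 0 to 11 (without CC-Ex replicate 4) for Ex vs. CC-Ex, 29 (without Sed replicate 2 or CC-Sed replicate 6) to 40 for the mean CC effect, and 0 for the other 3 comparisons. The cause of these differences was not tested. Slc1a5 turned from below 0 to 0.0284 for the mean CC effect with limma-voom. Among the passing members, Slc15a4 lost its mean call with upper-quartile scaling, the replicate block, the library number and limma-voom.

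Replicate numbers did not pair the rats: the mean correlation of residuals between same-numbered rats was 0.09 for Sed and CC-Sed and -0.17 for Ex and CC-Ex. With the number as a replicate block, 5 members passed in Sed vs. CC-Sed (0 higher, 5 lower), 0 in Ex vs. CC-Ex and 34 for the mean CC effect. Counting error is largest for the least abundant members. The lowest count of any member in a rat was 11, reached by Slc27a3 among others. The part of counting error in the spread between rats was not tested.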
